A study of Mus musculus with 16 samples.

Results

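Hox genes encode homeodomain transcription factors that lie in clusters and set positional identity along the body axis, and the order of the genes within a cluster follows the order of their use along that axis. In cells that do not use them, the clusters are typically held in a repressed state by Polycomb proteins, whereas Trithorax proteins keep active Hox genes open. Retinoic acid is a known inducer of the genes at the 3′ end, and TALE homeodomain proteins (Meis, Pbx and Pknox) bind DNA together with Hox proteins.

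The 38 Hox genes described here are 10 genes of the Hoxa cluster, 10 of Hoxb, 9 of Hoxc and 9 of Hoxd. Chromatin accessibility was measured by ATAC-seq (a transposase inserts sequencing adapters into open DNA) in pancreatic islets of the 8 inbred founder strains of the Diversity Outbred mice. The classical strains were 129S1_SvImJ (129), A_J (AJ), C57BL/6J (B6), NOD_ShiLtJ (NOD) and NZO_HlLtJ (NZO), and the wild-derived strains were CAST_EiJ (CAST), PWK_PhJ (PWK) and WSB_EiJ (WSB). There were 16 samples, 1 of each sex per strain, with no treatment and no age in the labels, so the spread within a strain also holds the difference between the sexes. Peaks were listed per sample at an FDR of 0.05 on the mm10 build, and touching or overlapping peaks of the 16 lists were merged into 362076 regions, of which 42427 were called in all 16 samples. A region was assigned to a Hox gene when it overlapped the gene body or the 3 kb upstream of it. The value used throughout is the scaled signal, which is the highest summit signal in the region divided by the sample's median over the 42427 shared regions, and a value of 0 means that no peak was listed, not that the chromatin was shown to be closed.

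The samples held 73387 to 167221 called regions. The 5th percentile of the listed scaled signals, a mark of how weak a listed peak could be, went from 0.0660 in the WSB female to 0.200 in the AJ male. Weak sites could therefore be listed in some samples and missed in others. As a check of the islet label, the promoters of all 8 beta cell genes examined, Ins1, Ins2 and Pdx1 among them, were called in all 16 samples. Promoters of 4 of 14 mesenchymal genes, 1 of 10 endothelial genes, 2 of 7 duct genes, 1 of 9 acinar genes and 0 of 9 leukocyte genes were also called in all 16 samples. In a tissue sample such as this, a site open in few cells and a site weakly open in many cells cannot be told apart.

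The 38 Hox genes had 26 regions, of which 1 was called in all 16 samples (3.85%, against 11.7% of all merged regions). Another 5 regions were called in 9 to 15 samples, 13 in 2 to 8 samples and 7 in 1 sample. The 26 regions covered 8654 bases and were 11 to 1607 bases wide, with a median of 203.5 bases, against a median of 200 bases for all regions and 1141 bases for the shared ones. They were GC-rich, with a median GC content of 57.7% against 44.8% for all regions and 47.0% for the shared ones. Of the 26, 11 overlapped an exon of a Hox gene, 8 lay in introns and 7 lay upstream.

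**Figure D1:**
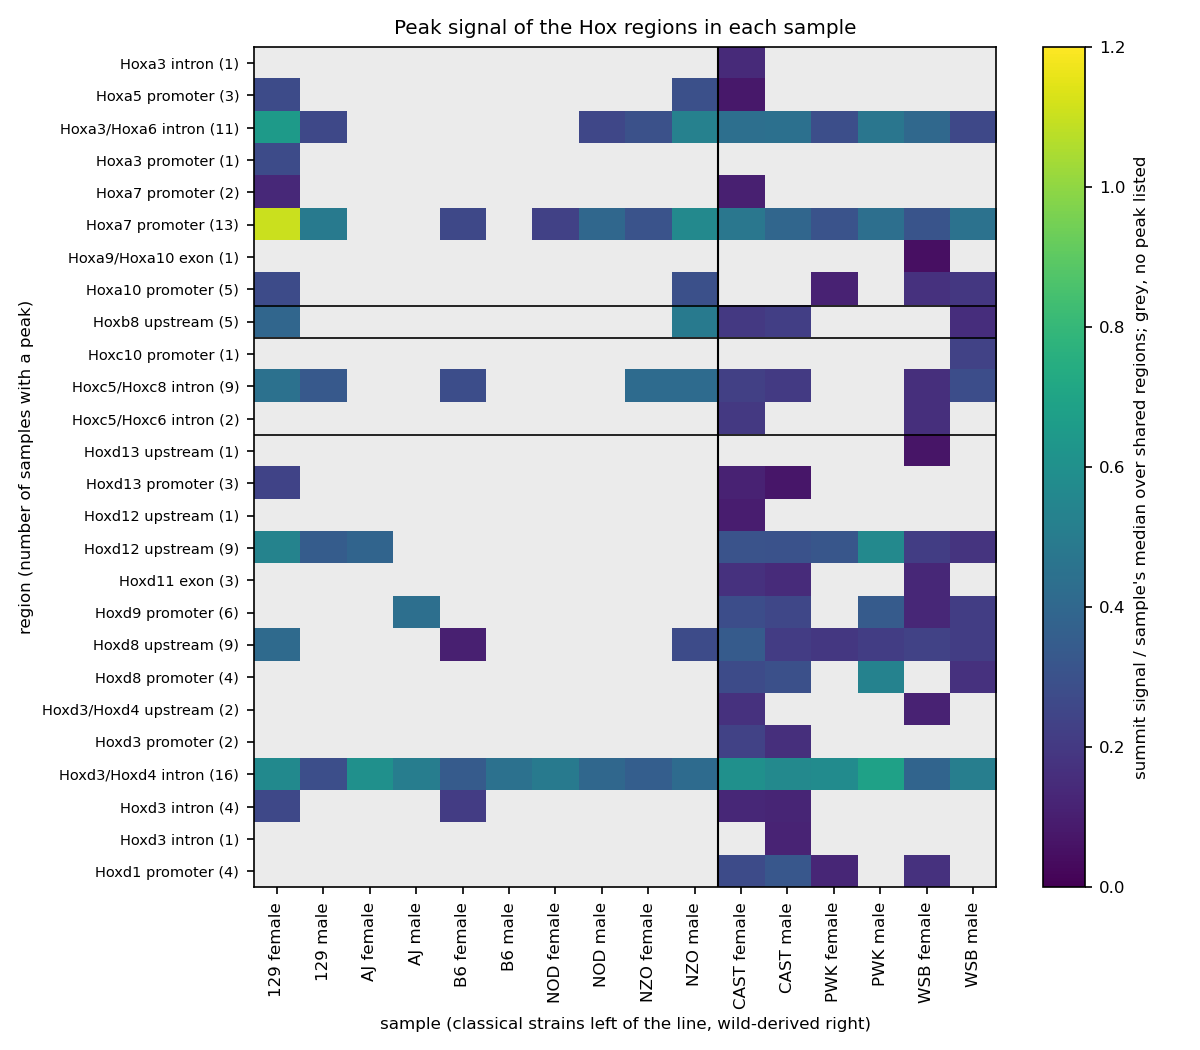
Scaled summit signal of the 26 Hox regions (rows, in chromosome order within the Hoxa, Hoxb, Hoxc and Hoxd clusters, with the number of samples that list a peak) in the 16 samples (columns), with grey where no peak was listed. Only the Hoxd3/Hoxd4 intron row is filled across all 16 samples, and the CAST columns hold the most filled cells (20 and 15).

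The 4 clusters differed in how many regions they held. Hoxd had 14 regions over 6044 bases, Hoxa had 8 over 2068 bases, Hoxc had 3 over 326 bases and Hoxb had 1 over 216 bases. Counting every region between the first and last member of a cluster, whether or not it touched a member, Hoxd held 16.5 regions per 100 kb and Hoxa 10.2, and both were above their own flanks of 500 kb on each side (7.1 and 9.8). Hoxc held 2.59 and Hoxb 1.15 regions per 100 kb, below their flanks (10.8 and 6.3). Regions called in all 16 samples were rarer inside all clusters but Hoxd. The 4 clusters together, 485 kb, held 1 such region (0.206 per 100 kb), whereas their flanks held 45 in 4000 kb (1.13 per 100 kb) and the genome without chromosome Y held 1.61 per 100 kb. Over the genome there were 13.7 regions of any kind per 100 kb, which Hoxd exceeded and the other 3 clusters did not reach. The share of bases under any region was 6.46% in Hoxd (2.97% in its flanks), 2.76% in Hoxa (3.69%), 0.282% in Hoxc (4.87%) and 0.239% in Hoxb (2.67%). The 4 clusters together were at 2.00%, their flanks at 3.55% and the genome at 6.81%. The cluster values are single densities with no replicate check.

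**Figure D2:**
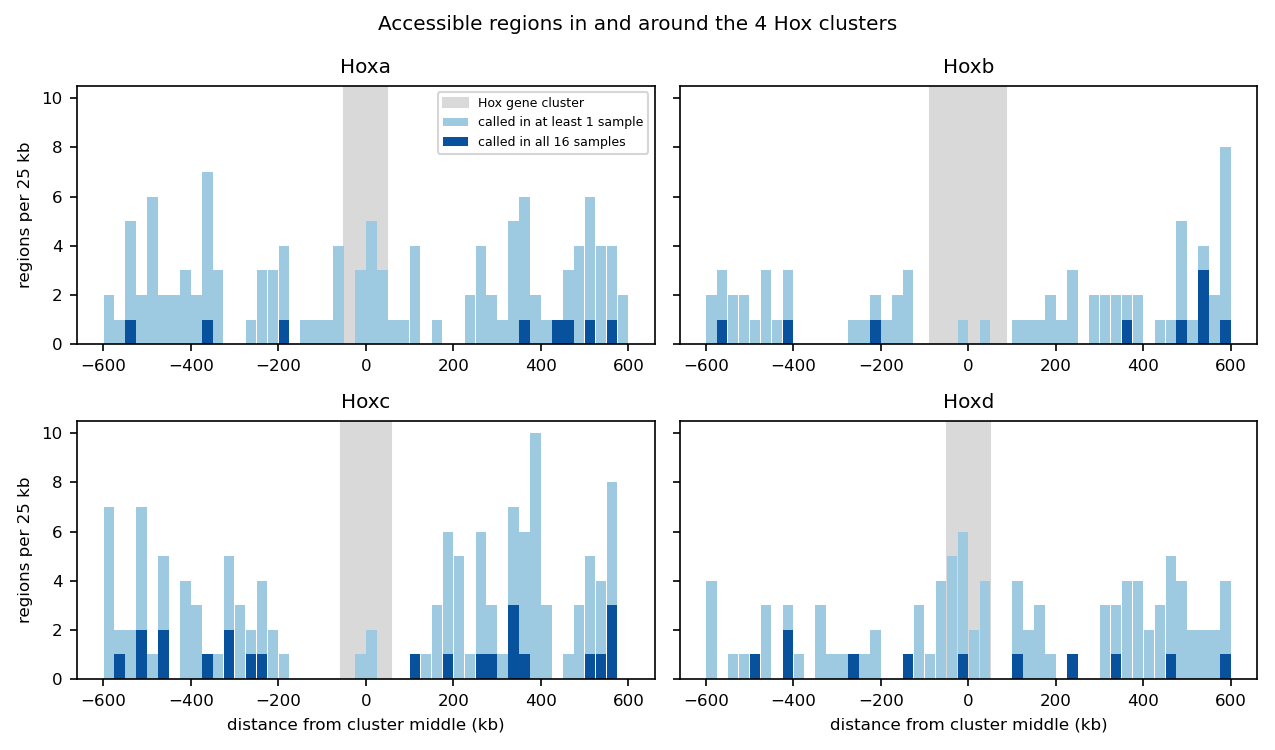
Number of merged regions per 25 kb (y axis) by distance in kb from the centre of each Hox cluster (x axis), for regions called in at least 1 sample (light) and in all 16 samples (dark), with the cluster shaded grey. A dark bar stands inside the shaded span of Hoxd alone, and the Hoxb and Hoxc spans hold 2 and 3 regions.

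Promoters were the clearest gap. A promoter region was one within 500 bases of a protein-coding transcript start. None of the 38 Hox genes had a promoter region called in all 16 samples, whereas 52.5% of 21646 protein-coding genes did. In at least 1 sample, 10 of the 38 (26.3%) had one, against 75.8% of protein-coding genes. Of the 38, 23 had a CpG-rich promoter (GC of at least 55% and an observed to expected CpG ratio of at least 0.6), a kind of promoter that was called in all 16 samples in 78.3% of the 9731 genes that had one. Of those 23 Hox genes, 7 had a promoter region in at least 1 sample and 16 had none, and of the other 15, 3 had one. These shares describe the list and were not tested.

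**Figure D3:**
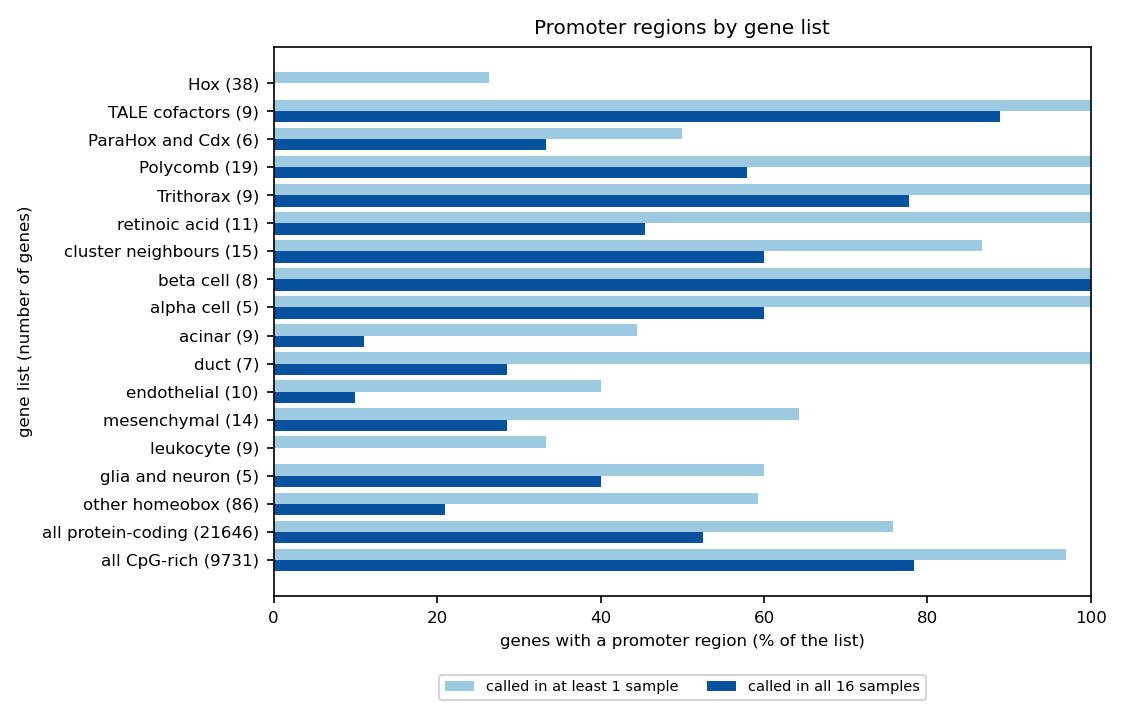
Share of the genes of each list (y axis, with the number of genes) that had a promoter region called in at least 1 sample (light) or in all 16 samples (dark), in percent of the list. The Hox bar reaches 26.3% in at least 1 sample and 0% in all 16, against 75.8% and 52.5% of all protein-coding genes.

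The single Hox region called everywhere lay at chr2:74715817-74716124 (308 bases, mm10), in an intron of both Hoxd3 and Hoxd4, which pattern the hindbrain and neck vertebrae. It lay 3888 bases from the nearest annotated start of a Hox transcript, that of Hoxd4, and covered a start of the antisense RNA gene Hoxd3os1. Its middle 300 bases (chr2:74715821-74716120, plus strand, GRCm38) are shown because this was the only Hox sequence with a peak in every sample, and capitals mark a match to the core of the motif of CTCF, the insulator protein that divides Hox clusters into domains in other tissues.
Hoxd3/Hoxd4 intron: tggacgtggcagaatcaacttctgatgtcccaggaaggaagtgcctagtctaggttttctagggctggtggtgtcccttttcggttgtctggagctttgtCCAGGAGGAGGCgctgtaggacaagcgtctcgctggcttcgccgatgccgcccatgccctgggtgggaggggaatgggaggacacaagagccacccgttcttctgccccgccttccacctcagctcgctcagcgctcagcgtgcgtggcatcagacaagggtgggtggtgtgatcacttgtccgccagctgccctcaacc

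The scaled signal of the Hoxd3/Hoxd4 intron region was 0.569 in the female and 0.290 in the male of 129, 0.60 and 0.509 in AJ, 0.345 and 0.446 in B6, 0.488 and 0.402 in NOD, and 0.358 and 0.418 in NZO. In the wild-derived strains the female and male values were 0.60 and 0.566 in CAST, 0.581 and 0.688 in PWK, and 0.387 and 0.511 in WSB. The median over the 16 samples was 0.499, which was at percentile 15.5 of the medians of the 42427 shared regions, so it was a weak site among those listed everywhere. The strain means went from 0.388 ± 0.0425 (SD, n = 2) in NZO to 0.634 ± 0.0756 (SD, n = 2) in PWK, with B6, 129, NOD, WSB, AJ and CAST between them in that order, and the pair of values of each strain overlapped with the pair of the next.

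The 3 contrasts asked whether this region varied with strain, sex or strain class, in limma fits on log2(summit + 1) centred on each sample's median, with p-values adjusted over all 42427 shared regions. The strain effect did not pass (adjusted p = 0.290), whereas 34.9% of shared regions passed at an adjusted p under 0.05. Without centring the samples it passed (adjusted p = 0.0419), and 62.3% of regions then did. The sex difference, male minus female, was -0.04 ± 0.15 (SE) on the log2 scale (adjusted p = 0.999), with 4 of 8 strains higher in the male, and 0.00943% of shared regions passed. The difference between wild-derived and classical strains, taken over 8 strain means, was 0.33 ± 0.22 (SE) on the log2 scale (limma, adjusted p = 0.590), and 0.033% of shared regions passed. The wild-derived samples had a mean scaled signal of 0.555 ± 0.101 (SD, n = 6) and the classical ones 0.443 ± 0.100 (SD, n = 10), and the 2 ranges overlapped. At an unadjusted p under 0.05, 0 of the 3 contrasts passed for this region.

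In the Hoxa cluster, whose genes act in the hindbrain, the limbs and the reproductive tract, 6 of 10 genes had a region: Hoxa3, Hoxa5, Hoxa6, Hoxa7, Hoxa9 and Hoxa10. Hoxa2, Hoxa4, Hoxa11 and Hoxa13 had none. Hoxa6 counted only through a site in a Hoxa3 intron, and Hoxa9 only through 1 region listed in the WSB female alone (0.0472). The share of all genes with a region under the same rule was not computed. The numbers of genes with a region, here and in the other clusters, thus cannot be called high or low. The Hoxa7 promoter region at chr6:52221400-52221999, which overlapped the first exon and 5′ UTR, had the highest median scaled signal of any Hox promoter region (0.354). Hoxa7 takes part in patterning the thoracic vertebrae. Its scaled signal was 1.10 in the female and 0.493 in the male of 129, 0 in both AJ samples, 0.262 and 0 in B6, 0.233 and 0.402 in NOD, and 0.309 and 0.564 in NZO. In the wild-derived strains the female and male values were 0.476 and 0.397 in CAST, 0.306 and 0.438 in PWK, and 0.311 and 0.455 in WSB. The 129 female thus stood above every other sample, no AJ sample had a peak, and the wild-derived values (0.306 to 0.476) lay inside the classical range (0 to 1.10). In a limma fit over the 69265 regions called in at least 12 samples, the sex difference of the Hoxa7 promoter was 0.21 ± 0.25 (SE, log2, adjusted p = 0.9996) and the class difference was -0.02 ± 0.34 (SE, log2, adjusted p = 0.990). Samples without a peak were dropped from that fit, and all of them were classical (both AJ samples and the B6 male). The region was listed in 6 wild-derived and 7 classical samples. The class difference thus leaves out the classical samples with no peak and cannot show that the classes were alike. The strain effect could not be estimated because AJ had no value.

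A second Hoxa site, chr6:52211489-52211861, in an intron of the long Hoxa3 gene and within 3 kb upstream of Hoxa6, was called in 11 samples. It is given because it was called in more than 8 samples, a choice made after its values were seen. Its scaled signal was 0.655 in the female and 0.261 in the male of 129, 0 and 0.256 in NOD, 0.296 and 0.527 in NZO, 0.438 and 0.441 in CAST, 0.290 and 0.469 in PWK, and 0.406 and 0.261 in WSB. AJ and B6 had no peak here in either sex, and all 6 wild-derived samples had one. The other 6 Hoxa regions were called in 1 to 5 samples. They included the Hoxa10 promoter (5 samples, up to 0.291 in the NZO male), the Hoxa5 promoter (3 samples, up to 0.291 in the NZO male) and the Hoxa3 promoter (the 129 female alone, at 0.276). Hoxa10 acts in uterus and limb development and Hoxa5 in the lung and cervical spine.

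The Hoxb cluster was the most sparsely marked, with 1 region for 10 genes. It lay upstream of Hoxb8, a gene known from haematopoietic progenitors and microglia, at chr11:96278800-96279015, 2890 bases from the Hoxb8 start. Its scaled signal was 0.397 in the 129 female, 0.200 in the CAST female, 0.221 in the CAST male, 0.491 in the NZO male and 0.159 in the WSB male, and the other 11 samples listed no peak. Hoxb1, Hoxb2, Hoxb3, Hoxb4, Hoxb5, Hoxb6, Hoxb7, Hoxb9 and Hoxb13 had no region in any sample, although 4 of the 10 Hoxb genes had CpG-rich promoters.

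In the Hoxc cluster, 4 of 9 genes had a region and 5 had none (Hoxc4, Hoxc9, Hoxc11, Hoxc12 and Hoxc13). The region seen most often, chr15:102987531-102987681, lay in an intron of Hoxc5, whose annotated body spans several neighbours, and upstream of Hoxc8, a gene of the thoracic and brachial segments. Its scaled signal in females was 0.448 in 129, 0.286 in B6, 0.229 in CAST, 0.420 in NZO and 0.160 in WSB. In males it was 0.333 in 129, 0.206 in CAST, 0.418 in NZO and 0.284 in WSB. The 129 and NZO samples held the 4 highest values, and AJ, NOD and PWK had no peak. The Hoxc10 promoter was called in the WSB male alone (0.239), and an intron region shared by Hoxc5 and Hoxc6 in the CAST and WSB females.

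In the Hoxd cluster, whose 5′ genes shape digits and genitalia, Hoxd10 alone of 9 genes had no region. The Hoxd region with the widest range of strain means lay upstream of Hoxd12 at chr2:74672653-74673226. Its scaled signal in females was 0.534 in 129, 0.385 in AJ, 0.305 in CAST, 0.323 in PWK and 0.217 in WSB. In males it was 0.348 in 129, 0.301 in CAST, 0.562 in PWK and 0.182 in WSB, and B6, NOD and NZO had no peak. All 6 wild-derived samples and 3 of 10 classical samples were therefore listed, with overlapping values among those listed. A region upstream of Hoxd8, chr2:74702256-74702599, had the same count, 6 of 6 wild-derived samples (0.194 to 0.343) and 3 of 10 classical samples (up to 0.414 in the 129 female).

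The 5 Hoxd promoter regions were listed 19 times over the 16 samples, 17 times in wild-derived samples (89.5%, against 46.1% of all calls, and the wild-derived lists were the longer ones). Over all Hox regions, 74 of 119 calls (62.2%) were in wild-derived samples. Both CAST samples called each of the 5 promoter regions, so many of the 17 calls came from 1 strain and are not independent. The Hoxd9 promoter was called in 6 samples, with 0.286 and 0.257 in the CAST female and male, 0.132 and 0.216 in the WSB female and male, 0.344 in the PWK male and 0.436 in the AJ male. The Hoxd8 promoter was called in both CAST samples (0.276 and 0.294), the PWK male (0.531) and the WSB male (0.170). The Hoxd1 promoter was called in both CAST samples (0.276 and 0.324), the PWK female (0.129) and the WSB female (0.170). The Hoxd13 promoter was called in both CAST samples (0.114 and 0.0735) and the 129 female (0.241). The Hoxd3 promoter, chr2:74711865-74712359, was the only Hox region called in both samples of a strain and in no other sample. Its scaled signal was 0.238 in the CAST female and 0.162 in the CAST male. Of all regions, 1.77% showed that pattern for CAST, and the share for any of the strains was not computed. Hoxd9 and Hoxd13 act in the limb, and Hoxd1 is known from sensory neurons.

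**Figure D4:**
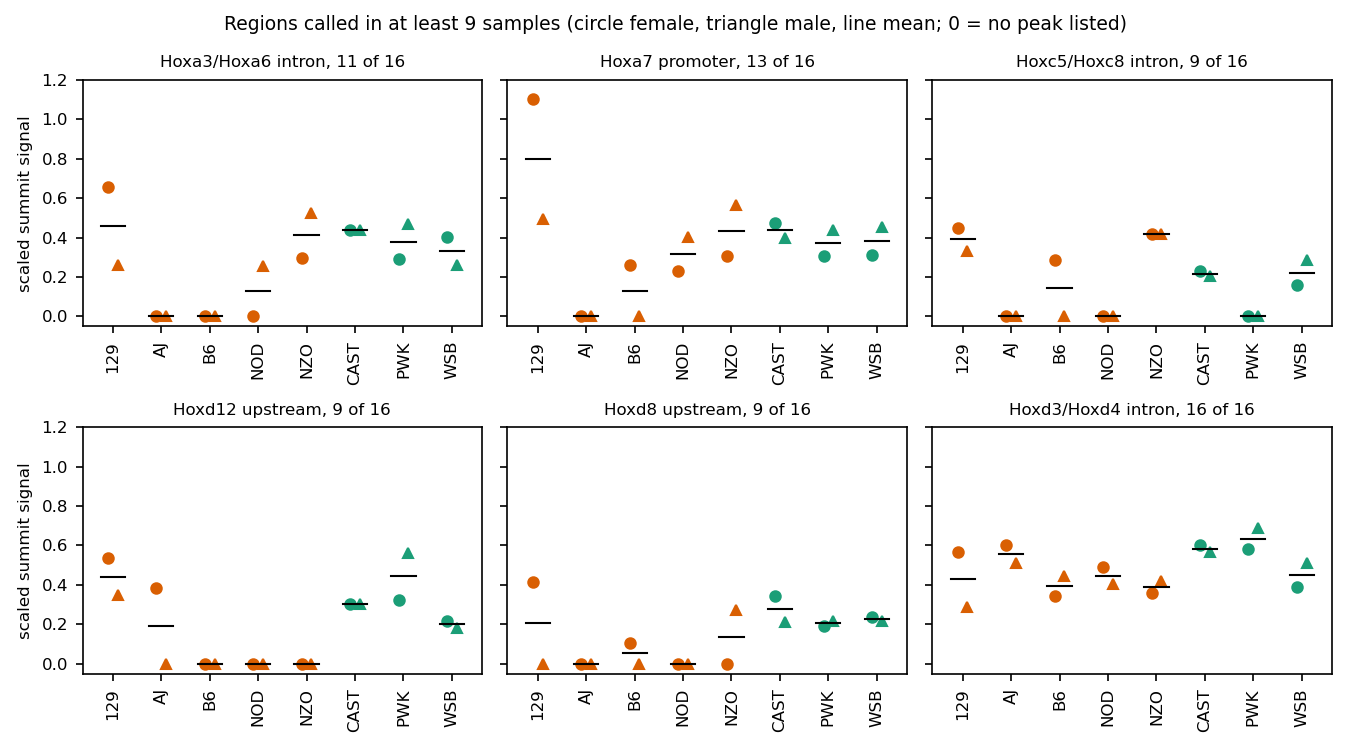
Scaled summit signal (y axis) of the 6 Hox regions called in at least 9 samples, by strain (x axis), with females as circles, males as triangles, the mean of the pair as a line, classical strains in orange and wild-derived strains in green; 0 means no peak listed. The highest point, 1.10, is the 129 female at the Hoxa7 promoter, and the Hoxd3/Hoxd4 intron is the only panel with no point at 0.

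The number of Hox regions called differed widely among samples. In classical strains it was 13 in the 129 female, 5 in the 129 male, 2 in each AJ sample, 5 and 1 in the B6 female and male, 2 and 3 in the NOD female and male, and 4 and 8 in the NZO female and male. In wild-derived strains it was 20 and 15 in the CAST female and male, 7 in each PWK sample, and 14 and 11 in the WSB female and male. The classical median was 3.5 and the wild-derived median 12.5, and the 2 ranges overlapped (1 to 13 against 7 to 20). The wild-derived lists were also longer, with 118383 to 167221 regions against 73387 to 135786. When every list was held to the 80000 peaks with the best p-value, the classical samples had 0 to 9 Hox regions (median 1.5) and the wild-derived ones 1 to 7 (median 3). The 129 female, with 9, was then the highest sample and the CAST male, with 7, the next.

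**Figure D5:**
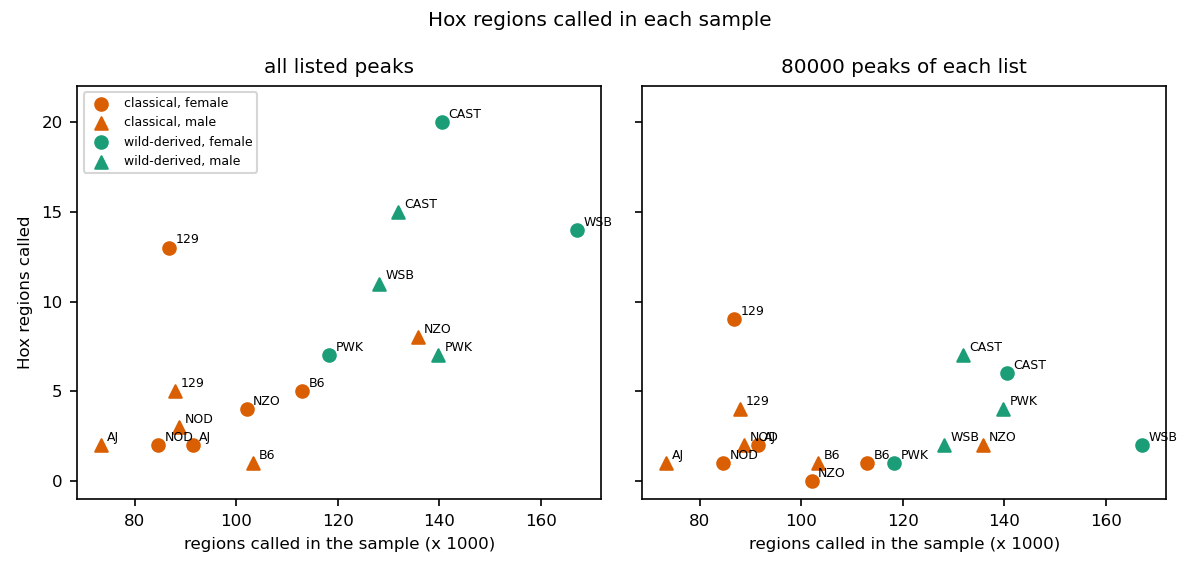
Number of Hox regions called in each sample (y axis) against the number of all regions called in the sample (x axis, in units of 1000, taken from the whole lists in both panels), for all listed peaks (left) and for 80000 peaks of each list (right), with circles for females, triangles for males and colours for strain class. The left panel reaches 20 in the CAST female, and in the right panel all samples lie between 0 and 9.

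Of the 26 regions, 12 were called in no classical sample (46.2%, against 36.4% of all regions), 1 in no wild-derived sample (3.85%, against 21.9%) and 13 in both classes. Of the 12, 6 rested on 1 sample. CAST samples called 21 of the 26 regions (80.8%, against 44.1% of all regions), and 4 regions were called in CAST alone (15.4%, against 7.81%). Both sexes of a strain called the same Hox region in 14 of 21 cases in CAST, 8 of 17 in WSB, 5 of 13 in 129, 5 of 9 in PWK, 4 of 8 in NZO, 2 of 3 in NOD, 1 of 5 in B6 and 1 of 3 in AJ. As shares these were 66.7% in CAST (70.6% over all regions), 47.1% in WSB (64.2%), 38.5% in 129 (65.9%), 55.6% in PWK (48.9%), 50% in NZO (50.5%), 66.7% in NOD (72.9%), 20% in B6 (62.8%) and 33.3% in AJ (61.6%). The deposited strain lists score each peak for reproducibility between the sexes (irreproducible discovery rate). A cut of 0.05 on that score, applied here, kept 9 of the 26 regions in at least 1 strain, 8 of them in CAST. Before that cut the CAST list held 14 Hox regions. The share of all regions that pass the cut was not computed, so these counts cannot be called high or low.

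The signal of GC-rich chromatin differed among samples as well. Over 2152 shared regions with at least 60% GC, the sample's median centred log2 signal was highest in the NZO male (0.99, with 8 Hox regions) and the 129 female (0.87, with 13). It was 0.68 and 0.48 in the CAST female and male, 0.23 and 0.51 in the PWK female and male, and 0.12 and 0.24 in the WSB female and male, so WSB had low values beside 14 and 11 Hox regions. In the other classical samples it was 0.44 in the 129 male, 0.06 and 0.05 in the AJ female and male, 0.37 and -0.03 in B6, 0.33 and 0.16 in NOD, and 0.27 in the NZO female. Its part in the Hox counts was not tested.

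Marker genes of other cell types varied among samples too. The summed promoter scaled signal of 7 duct genes, all of which were called in at least 1 sample, was 1.55 to 5.47 (median 2.46) in classical and 2.19 to 3.03 (median 2.50) in wild-derived samples. Its 2 highest values were in the NZO male (5.47) and the 129 female (4.103), and the lowest were in the NOD male (1.55) and the B6 male (1.87). The sum over 9 acinar genes was 0.395 to 2.27 (median 0.784) in classical and 0.742 to 1.30 (median 1.12) in wild-derived samples, and 5 of the 9, Ptf1a and Pnlip among them, had no promoter region in any sample. The sum over 9 leukocyte genes was 1.13 in the NZO male, 0.119 in the B6 female, 0.111 in the NZO female and 0 in the other samples, with no region for 6 of the 9, Spi1 among them. The NZO male thus had the highest duct, acinar and leukocyte sums. It was also highest for gene lists not chosen as cell type markers: Polycomb (43.2), genes that flank the clusters (39.8) and retinoic acid genes (15.8). It was not highest for the TALE (29.1), Trithorax (23.2), ParaHox and Cdx (3.25), other homeobox (36.7) or beta cell genes (14.9). The sum over 14 mesenchymal genes was 2.49 to 4.37 (median 3.39) in classical and 2.93 to 3.91 (median 3.04) in wild-derived samples, with no region for 5 of the 14, Pdgfrb and Col1a1 among them. The sum over 10 endothelial genes was 5.22 to 8.52 (median 7.35) and 6.41 to 7.37 (median 6.68), with no region for 6 of the 10, Pecam1, Flt1 and Erg among them. Esam alone had 4.83 to 8.19 (median 6.57) over all samples, whereas Cdh5, Kdr and Tek reached at most 0.60, 0.333 and 0.415. The endothelial sum thus rested mainly on 1 promoter and is a poor measure of that cell type. The sum over 5 glial and neuronal genes was 3.66 to 5.72 (median 4.03) and 3.45 to 6.22 (median 4.18), with no region for Sox10. The part of these cell types in the Hox counts was not tested.

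The CTCF core, searched as CCNNNAGNNGGC on both strands in the middle 300 bases of each region, was found in 5 of 26 Hox regions (19.2%), against 6.65% of all regions and 13.5% of the shared regions. The HOX-PBX composite site TGATTNAT was found in none, against 6.14% of all regions, and the MEIS site TGACAG in 3 (11.5%), against 22.2%. A match is a string of letters in a window and was not tested as a binding site. The median GC content was 57.7% in the Hox regions, 44.8% in all regions and 47.0% in the shared ones. No background of like GC content was searched, so these shares cannot be called high or low for the Hox regions. Searching the whole width of the regions gave 7 with a CTCF core. The Hoxd12 and Hoxd1 matches lie outside the middle 300 bases, and wider regions leave more room for a match. The share of all regions with a match over the whole width was not computed, so the 7 cannot be called many or few. The 7 are shown because they include 3 of the 6 regions called in at least 9 samples. Each match is given 5′ to 3′ on its own strand, with the core in capitals and its position in GRCm38.
Hoxd3/Hoxd4 intron, 16 samples, chr2:74715912-74715941, plus strand: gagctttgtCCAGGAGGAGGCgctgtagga
Hoxa7 promoter, 13 samples, chr6:52221800-52221829, minus strand: aagaaaattCCAGGAGATGGCagtgtggct
Hoxd12 upstream, 9 samples, chr2:74673169-74673198, minus strand: gccaaacgcCCAGGAGATGGCgagcgtgct
Hoxb8 upstream, 5 samples, chr11:96278939-96278968, plus strand: gcacagtggCCGCTAGATGGCatccttgct
Hoxa10 promoter, 5 samples, chr6:52240532-52240561, minus strand: tcgcagccgCCACGAGATGGCgcactcccg
Hoxd1 promoter, 4 samples, chr2:74763209-74763238, plus strand: ccctgtggcCCTGCAGCCGGCcttccccct
Hoxd3 promoter, 2 samples, chr2:74711990-74712019, minus strand: ccacgcgatCCCGCAGCCGGCgactagagc
The single Hoxb region is among them, and so are the Hoxd region called everywhere and the Hoxa region with the highest median.

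Genes that act with or on Hox genes were called more often than the Hox genes themselves. The share called in all 16 samples was 88.9% for TALE, 77.8% for Trithorax, 57.9% for Polycomb and 45.5% for retinoic acid genes. It was 52.5% for all protein-coding genes and 78.3% for those with a CpG-rich promoter, which 18 of the 19 Polycomb genes had. The lists were thus not all above the background. All 9 TALE cofactor genes had a promoter region in at least 1 sample and 8 in all 16, and 2 of these 8 passed the strain test (limma, adjusted p under 0.05 at the gene's promoter region with the smallest p), against 21.8% of the 11371 protein-coding genes with a promoter region in all 16 samples. The strain test counts given for the lists that follow are to be read against that same share of 21.8%. A gene's level is that of its highest promoter region in each sample. The Meis1 promoter had a scaled signal of 2.45 in the PWK female to 7.25 in the AJ male (median 5.07, adjusted p = 0.00966), with both PWK samples lowest. Pbx3 had 0.771 to 2.22 (median 1.25, adjusted p = 0.0473). Pknox1 had a median of 1.92 and did not pass (adjusted p = 0.0929).

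Of 19 Polycomb genes, all had a promoter region in at least 1 sample and 11 in all 16, and 2 of the 11 passed the strain test. These were Jarid2, a recruiter of Polycomb repressive complex 2, with a median of 1.83 (adjusted p = 0.0266), and Ezh2, its methyltransferase, with a median of 4.79 (adjusted p = 0.0412). Of 9 Trithorax genes, 7 were called in all 16 samples and 0 of the 7 passed the strain test in limma, with Ash2l (unadjusted p = 0.0338) and Men1 (unadjusted p = 0.0342) the 2 under an unadjusted 0.05. Of 11 retinoic acid genes, 5 were called in all 16 samples, and Aldh1a1, which makes retinoic acid, passed the strain test with a median of 5.13 (adjusted p = 0.00455).

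Of 6 ParaHox and Cdx genes, the evolutionary sister group of the Hox genes, 2 were called in all 16 samples. Pdx1, the islet transcription factor, had a median of 1.51, and Cdx4 had a median of 0.780, whereas Cdx1, Cdx2 and Gsx2 had no promoter region. Among 86 other homeobox genes, a list drawn up after the values were seen, 51 (59.3%) had a promoter region in at least 1 sample and 18 (20.9%) in all 16. Of 15 genes that flank the clusters, 9 were called in all 16 samples and 3 of the 9 passed the strain test, with Hnrnpa1 and Cbx5 sharing 1 region (median 2.12, adjusted p = 0.0137). Evx2, the homeobox gene next to Hoxd13, was listed in no sample.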

How the data were processed

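Peak lists were analysed for 16 islet ATAC-seq samples. Per the study's methods the authors trimmed reads with cutadapt 2.0, aligned all strains to the B6-based mm10 genome with Bowtie2 2.3.4.1, removed duplicates with Picard 2.9.2 and called peaks in each sample with MOSAiCS at an FDR of 0.05; no shift of read ends for the transposase is stated. The deposited lists give a summit signal, unscaled for depth, and a −log10 p per peak; read depth per sample is not in the lists, so list length and the median summit over shared regions (32 to 136) stand in for it, and no interval was computed. The authors also aligned the reads to genomes made for each strain as a check on the reference; those alignments were not used here.

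Peaks were merged as described, without chromosome Y. Gene models were GENCODE M21, and sequence came from the RefSeq copy of GRCm38, matched to mm10. Strain was tested with sex as a covariate, sex with strain, and class on 8 strain means, with limma 3.58.1 in R 4.3.3 and Benjamini-Hochberg adjustment over all shared regions. The fits were run on simulated data with a value in every sample and changes in CAST alone. That was a check of the code and not of the Hox results, as it held no missing peaks. Regions with per-sample values were, per cluster, those with the highest median and the widest range of strain means, and those particular to 1 to 3 strains. The members, gene lists and rules were chosen with earlier results of these data known. Alternatives covered pseudocount, centring, normalization, list length, merging distance, promoter window and left-out samples, and centring within 10 bins of GC content was added after seeing the data.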

Additional observations from a re-analysis of the deposited data

Results flagged for a closer look

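Values that stood far from the rest of their group were sought with Dixon's test in 4 measures over females, males, classical and wild-derived samples, 16 combinations in all, of which chance would single out about 1 in 20. The combinations share samples. All 3 that stood apart were the 129 female. Its Hoxa7 promoter signal of 1.10 lay apart from the other females and from the other classical samples, and it had 1.498 Hox regions per 10000 called regions, apart from the other classical samples. Without that sample, 25 of the 26 Hox regions were still called in at least 1 sample.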

How the results depend on the processing

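The Hox values rest on weak peaks. Regions called in at least 1 sample fell from 26 to 6 with the stronger 0.5 of each list and to 12 with 80000 peaks of each list, and regions called in all 16 samples fell from 1 to 0 under both, since fewer peaks were kept. Leaving out 1 sample at a time, an alternative added after seeing the data for these counts, gave 24 to 26 regions in at least 1 sample, 1 in every remaining sample and 0 Hox genes with a promoter region in every remaining sample. The promoter count was 0 under every setting run, including a 3 kb window. The strain count was 0 but for 1 without centring; with the stronger 0.5 of the lists no Hox region could be tested. The sex difference of the Hoxd3/Hoxd4 region was -0.10 to 0.10 on the log2 scale when single samples were left out (0.00 without the NOD male) and 0.10 without strain 129, so its sign was not settled, and its strain adjusted p was 0.0848 to 0.469 without single samples and 0.0563 after centring within bins of GC content. The female and male of a strain are paired through the strain term of the sex contrast.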
